A study of Canis lupus familiaris with 5 samples.

Results

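The cells described here are CD34-sorted dog bone marrow cells that carry transcripts of the erythroid and megakaryocyte programme. They were chosen by measured values: at least 3 UMIs (unique molecular identifiers, each counting 1 captured transcript) summed over GATA1, KLF1 and NOSTRIN, at least 5 UMIs of CA2, at most 2 of VPREB1, none of PAX5, and AHSP under 0.2% of the cell's UMIs. This rule found 433 members among 8485 sorted cells, 186 of 4720 in sorted library 1 and 247 of 3765 in sorted library 2. The whole series holds 24708 cells after the same quality limits.

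Marrow was flushed from the femurs of 3 healthy dogs labelled wild type, red cells were lysed, and cells were loaded either after sorting of viable CD34+ cells (2 libraries) or unsorted (whole marrow, 3 libraries). The sorted libraries came from marrows 2 and 3, so they share dogs with 2 of the whole-marrow libraries. Which sorted library belongs to which marrow was read only from digits in the library names and is not certain. The breed, age and sex of the dogs are not given in the sources used here. Each library is 1 sample of 1 dog, and cells of a library are not replicates.

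Erythroid and megakaryocyte cells share a progenitor in the marrow. GATA1, a zinc finger transcription factor, is needed for both lines, KLF1 drives the erythroid line, and FLI1 is a factor of the megakaryocyte line. The erythropoietin receptor EPOR carries survival signals into erythroid progenitors, whereas ITGA2B, the alpha chain of the platelet fibrinogen receptor, appears on megakaryocytes and on early progenitors. Carbonic anhydrases, heme enzymes, membrane skeleton proteins and globins are made as erythroid cells mature.

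Sorted libraries held 62188030 and 70169186 UMIs in all, and whole marrows 46114431 to 54074420. Barcodes removed for few genes or over 10% mitochondrial UMIs came to 4.51% and 22.8% of the sorted libraries and 7.61% to 16.5% of the whole marrows. Library pairs shared 4 to 12 barcodes, of which 0 to 2 were members. The members had a median of 17928.5 UMIs per cell in library 1 and 19842 in library 2. Called doublets were 8 of the 186 (4.30%) and 13 of the 247 (5.26%) members, and they were kept.

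The label was checked against its 6 markers. Of these, GATA1, KLF1, NOSTRIN and CA2 belong to the rule, so only EPOR and ITGA2B were free to differ. GATA1 had at least 1 UMI in 97.8% and 98.8% of members of libraries 1 and 2, KLF1 in 68.3% and 75.7%, and NOSTRIN in 58.6% and 62.3%. EPOR had at least 1 UMI in 132 of 186 (71.0%) and 201 of 247 (81.4%) members, and ITGA2B in 66 (35.5%) and 110 (44.5%). Both were present in 51 and 93 members, EPOR alone in 81 and 108, ITGA2B alone in 15 and 17, and neither in 39 and 29.

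By EPOR and ITGA2B alone, the erythroid side of the label rested on most members and the megakaryocyte side on a minority. Some platelet genes were sparse. VWF (von Willebrand factor) was at 0 and 0.379 CPM in the members of libraries 1 and 2, and PPBP (platelet basic protein) at 1.43 and 3.03 CPM. SELP (P-selectin) was not, with 262 and 260 UMIs over the members. In all, 37.1% and 44.1% of members had no UMI of SELP or the other platelet genes used for the split below. CPM scales the summed UMIs of a class in 1 library to a total of 1000000. ALAS2, the erythroid heme enzyme of later stages, was at 0 and 0.190 CPM. AHSP, which the rule itself limits, had no UMI in 175 and 211 members. EPX, a defining eosinophil gene, was at 0 CPM in both libraries.

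To compare detection at equal depth, cells were thinned to 5000 UMIs, and cells with fewer were left out. Pro-B cells were chosen by at least 3 VPREB1 UMIs and at least 1 PAX5 UMI. Stem-like cells, defined below, held no GATA1, KLF1 or NOSTRIN UMI. Genes that follow these genes from cell to cell were separated by the choice of cells, so these contrasts are not independent of it. EPOR was then detected in 33.9% (exact 95% interval 27.1 to 41.2) and 43.7% (37.4 to 50.2) of the members, against 0.225% and 0.272% of stem-like cells and 0.270% and 0.129% of pro-B cells of the same libraries. ITGA2B was detected in 15.1% and 25.5% of the members, against 0.449% and 0% of stem-like cells (0 of 368, upper 95% limit 0.997%) and 0.675% and 0.386% of pro-B cells. Both genes stood above the level in pro-B cells, a lineage that should lack them. All pro-B cells had median depths of 4221 and 7132 UMIs before thinning, so most pro-B cells of library 1 were left out. Intervals cover counting error only.

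**Figure D1:**
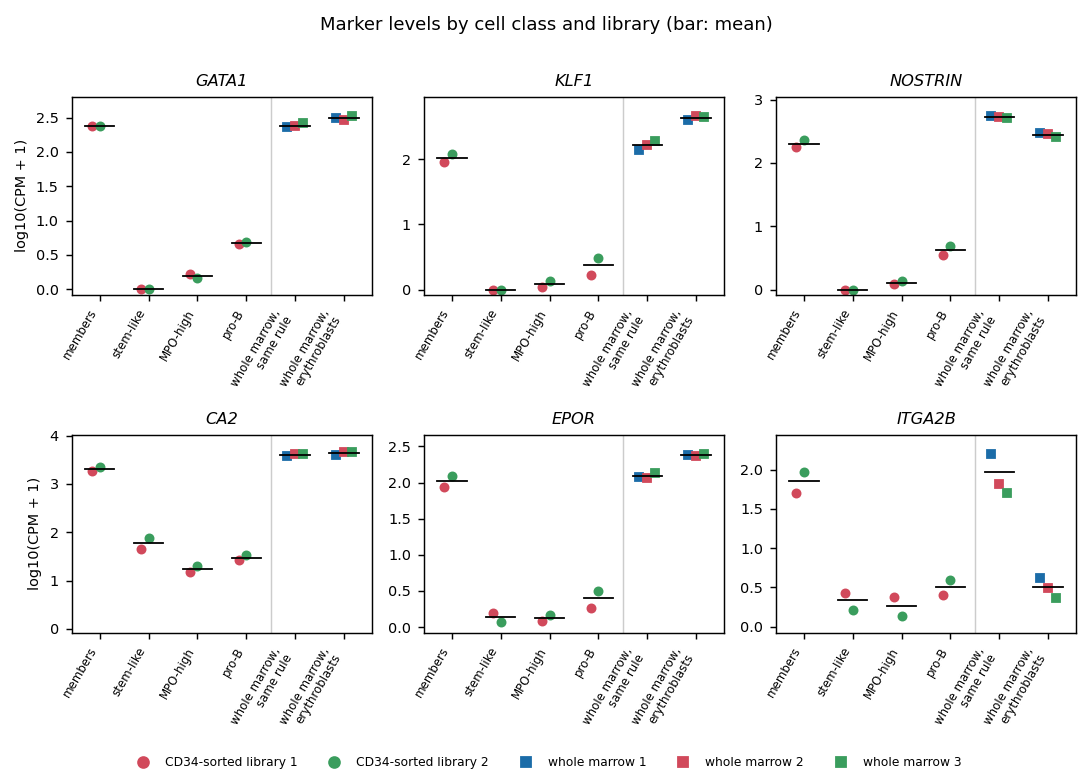
Levels of the 6 markers as log10(CPM + 1), by cell class (x axis) and library (points, coloured by dog as matched from the library names; black bars are means). GATA1, KLF1, NOSTRIN and CA2 chose the members, so only EPOR (84.6 and 123 CPM in members) and ITGA2B (49.4 and 93.7 CPM) are free of the rule.

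Cells passing the same per-cell rule were more frequent after the sort. They made up 3.94% (exact 95% interval 3.40 to 4.54) and 6.56% (5.79 to 7.40) of the sorted libraries, against 0.329%, 0.654% and 0.437% of whole marrows 1 to 3. Both sorted libraries lay above all 3 whole marrows. The means were 5.25% ± 1.85 (SD, n = 2) and 0.474% ± 0.166 (SD, n = 3), an 11.1-fold ratio (two-sided exact permutation test over libraries, p = 0.1, the smallest that 10 splits allow). Cells were also thinned to 3000 UMIs, with 1 UMI of the 3 genes and 1 of CA2 required, and cells with fewer than 3000 UMIs were left out. This kept 3818 of 4720 and 3401 of 3765 sorted cells. Of whole-marrow cells it kept 3380 of 7295, 2642 of 4585 and 2767 of 4343. The ratio was then 5.32, with set of cells, depth and limits all changed.

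Cells just inside and just outside 2 of the limits had these EPOR levels. In libraries 1 and 2, the 15 and 25 members with exactly 3 UMIs of the 3 genes had EPOR at 26.8 and 74.1 CPM, and the 25 and 28 cells left out with 2 UMIs had 34.4 and 54.1 CPM. The 8 and 5 members with exactly 5 CA2 UMIs had EPOR at 44.7 and 58.2 CPM, against 18.4 and 36.3 CPM in the 5 and 10 cells with 4. No sorted cell that met the other limits was left out for AHSP.

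The members were set against stem-like sorted cells, chosen by at least 5 UMIs summed over TFPI and NRIP1, no GATA1, KLF1, NOSTRIN or PAX5 UMI, at most 2 VPREB1 UMIs and MPO under 0.02% of UMIs. There were 451 and 370 such cells in libraries 1 and 2. Across 10357 genes, 1014 were higher (9.79%) and 1164 lower (11.2%) in members, with a median log2 fold change of -0.0030 over all genes (edgeR quasi-likelihood test on UMI sums, library as a block, Benjamini-Hochberg adjusted p under 0.05). Genes that follow the rule genes, or TFPI and NRIP1, from cell to cell were selected along with them. These calls are therefore not independent of the choice of members or of stem-like cells. With the sums of library 1 left out 878 genes passed, and with those of library 2 left out 691.

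EPOR was at 84.6 and 123 CPM in members, against 0.566 and 0.157 CPM in stem-like cells. Both libraries showed the same order, with no overlap (log2 fold change 8.10 ± 0.29, SE, edgeR adjusted p = 1.97e-10). ITGA2B was at 49.4 and 93.7 CPM in members, against 1.70 and 0.629 CPM in stem-like cells (log2 fold change 5.88 ± 0.48, edgeR adjusted p = 0.000128). Library 2 was the higher for both genes among the members.

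Of the erythroid surface and early erythroid genes, 20 of 30 tested rose and 1 fell, with a median log2 fold change of 2.17. MUC13, a transmembrane mucin, was at 79.2 and 68.6 CPM in members and had no UMI in stem-like cells, at least 326-fold higher against a floor of 3 counts over the group. AQP1, the water channel of red cells, was at 41.0 and 34.3 CPM against 0 (at least 166-fold). TSPO2, a membrane protein of erythroid cells, was at 19.2 and 30.9 CPM against 0.141 and 0.157 CPM (ratio 176, counting interval 48.3 to 1460). CA1, the carbonic anhydrase of mature red cells, was at 30.4 and 29.6 CPM against 0.283 and 0.314 CPM. In this list CNRIP1 was the gene that fell, at 0.287 and 0.190 CPM in members against 4.10 and 2.20 CPM.

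Heme synthesis and mitochondrial iron import genes rose in 6 of 20 cases and fell in none, with a median of 0.48. UROD, uroporphyrinogen decarboxylase, was at 135 and 154 CPM in members, against 40.0 and 39.0 CPM in stem-like cells (log2 fold change 1.90 ± 0.10, edgeR adjusted p = 9.94e-09). ALAD, an earlier enzyme of the same pathway, was at 108 and 135 CPM against 53.6 and 63.8 CPM. Iron handling genes rose in 6 of 11 cases and fell in none. TFRC, the transferrin receptor, was at 63.1 and 35.5 CPM in members against 32.5 and 21.8 CPM, and the iron exporter SLC40A1 at 11.8 and 15.9 CPM against 0.424 and 0 CPM (ratio 63.9, counting interval 21.4 to 314).

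Red cell membrane skeleton genes split, with 5 higher and 4 lower of 12. RHAG, the Rh-associated glycoprotein, was at 59.4 and 60.9 CPM in members against 0.849 and 0.629 CPM. MPP1 fell to 21.2 and 22.6 CPM in members, against 59.0 and 81.3 CPM in stem-like cells.

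Megakaryocyte and platelet genes rose in 8 of 19 cases and fell in 1, with a median of 0.96. SELP, P-selectin of platelet granules, was at 75.2 and 49.3 CPM in members against 18.8 and 10.5 CPM in stem-like cells (log2 fold change 2.13 ± 0.16, edgeR adjusted p = 2.7e-07). PTGS1, the cyclooxygenase of platelets, was at 47.6 and 59.0 CPM against 17.7 and 21.8 CPM. ANGPT1, angiopoietin 1, fell to 2.30 and 3.03 CPM in members, against 9.06 and 8.17 CPM. PPBP passed in the comparison of both libraries, but not by DESeq2 (adjusted p = 0.47) or with either library left out (edgeR adjusted p = 0.057 without library 1 and 0.18 without library 2).

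Transcription factors of the erythroid and megakaryocyte lines rose in 7 of 26 cases and fell in 6. GFI1B, a repressor needed in both lines, was at 56.8 and 60.9 CPM in members against 19.4 and 25.6 CPM (log2 fold change 1.42 ± 0.15, edgeR adjusted p = 7.55e-06). TAL1, a partner of GATA1, was at 163 and 149 CPM against 87.4 and 72.6 CPM, and its cofactor LDB1 at 60.8 and 53.3 CPM against 26.9 and 21.7 CPM. SPI1, the myeloid factor PU.1, fell to 36.2 and 31.5 CPM in members, against 80.1 and 116 CPM. IKZF1 and BCL11A fell as well, with log2 fold changes of -0.56 ± 0.08 and -0.74 ± 0.12.

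Stem cell genes fell in 12 of 17 cases and rose in none, with a median of -1.74. Since TFPI and NRIP1 chose the stem-like cells, genes that follow them were higher there by that choice. CD34, the sorted surface marker, was at 123 and 86.7 CPM in members, against 574 and 454 CPM in stem-like cells (log2 fold change -2.29 ± 0.48, edgeR adjusted p = 0.039). At 5000 UMIs it was detected in 36.6% and 33.2% of members, against 91.5% and 87.0% of stem-like cells. FLT3, a receptor of early lymphoid and myeloid progenitors, was at 2.87 and 5.12 CPM against 47.8 and 39.3 CPM. HOXA9 was at 14.9 and 10.4 CPM against 56.7 and 36.8 CPM. KIT, the stem cell factor receptor, was at 68.0 and 105 CPM in members and 102 and 128 CPM in stem-like cells.

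Among markers of other lineages, most of those tested did not pass. DNTT, the template-independent polymerase of early lymphocytes, was at 53.7 and 58.4 CPM in members, against 266 and 332 CPM in stem-like cells (log2 fold change -2.38 ± 0.13, edgeR adjusted p = 4.92e-07). Lymphoid markers fell in 6 of 16 B-lineage cases, with 1 higher, and in 4 of 6 T and NK cell cases, and neutrophil markers fell in 4 of 13. CCR9, a chemokine receptor, had no UMI in members, against 16.7 and 5.97 CPM in stem-like cells (at least 33.9-fold lower), and CD2 was at 2.30 and 1.71 CPM against 46.0 and 32.5 CPM. The neutrophil granule gene LTF was at 4.88 and 6.64 CPM against 68.3 and 62.9 CPM.

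Basophil, mast cell and eosinophil markers went the other way in 4 of 8 cases, with 1 lower. FCER1A, the alpha chain of the high-affinity IgE receptor, was at 227 and 209 CPM in members, against 21.4 and 42.9 CPM in stem-like cells (log2 fold change 2.84 ± 0.29, edgeR adjusted p = 0.0019). MS4A2, its beta chain, was at 37.6 and 72.3 CPM against 5.66 and 7.70 CPM, and CPA3, mast cell carboxypeptidase, at 15.5 and 19.9 CPM against 0.566 and 0.629 CPM. CMA1, mast cell chymase, fell to 5.45 and 2.65 CPM in members, against 33.7 and 33.0 CPM. HDC, histidine decarboxylase, had 3 and 2 UMIs over the members with a KLF1 or EPOR UMI and 0 in the other members. The 14 markers of this list that the files hold summed to 444 and 497 CPM in members and 199 and 218 CPM in stem-like cells, with EPX at 0 in members. Their part in the other results was not tested.

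Few cell cycle genes passed against stem-like cells. None of 46 G2 and mitosis genes passed (median 0.21), and 6 of 38 DNA replication genes rose. PRIM2, a primase subunit, was at 139 and 164 CPM in members against 35.8 and 42.9 CPM. Ribosome biogenesis genes rose in 9 of 30 cases, among them SRM at 123 and 145 CPM against 90.6 and 106 CPM, a call that was lost with either library left out.

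**Figure D2:**
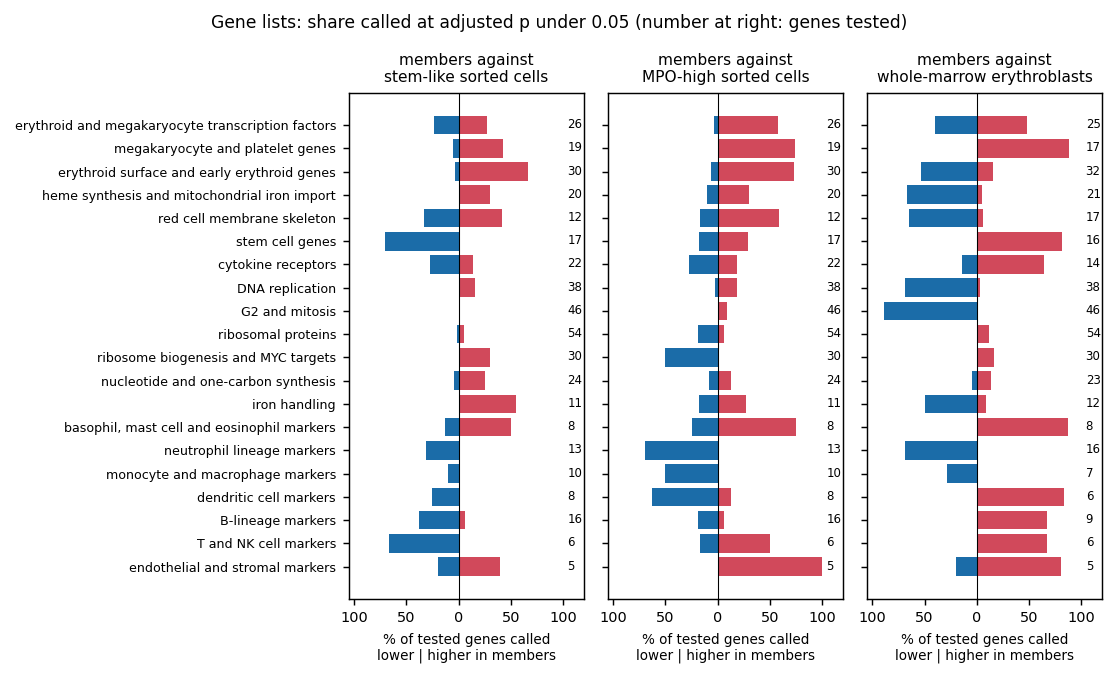
Share of the tested genes of each list called higher (right, red) or lower (left, blue) in the members, for 3 comparisons; the number at the right is how many were tested. Of stem cell genes 12 of 17 were lower than in stem-like cells and 13 of 16 higher than in erythroblasts, and of heme genes 6 of 20 were higher than in stem-like cells and 14 of 21 lower than in erythroblasts; the erythroblast panel also differs in library and sort.

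Against MPO-high sorted cells, which carry at least 0.2% of their UMIs as MPO and numbered 323 and 273, 1536 of 10357 genes were higher (14.8%) and 1687 lower (16.3%) in members, in the same fit. With library 1 left out 1767 genes passed, and with library 2 left out 1514. Genes that follow MPO or the rule genes from cell to cell were separated by the choice of cells, so these calls are not independent of it. Megakaryocyte and platelet genes rose in 14 of 19 cases and transcription factors in 15 of 26. GFI1B was at 56.8 and 60.9 CPM in members, against 0.563 and 0.356 CPM in MPO-high cells (log2 fold change 6.88 ± 0.26, edgeR adjusted p = 2.19e-10). PODXL, a sialomucin, was at 17.2 and 17.1 CPM against 0 (at least 98.9-fold), and TSPO2 at 19.2 and 30.9 CPM against 0 (at least 152-fold).

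Neutrophil markers fell in 9 of 13 cases and monocyte markers in 5 of 10. Since MPO chose the comparison cells, genes that follow MPO were higher there by that choice. GZMB, granzyme B, was at 2.01 and 4.93 CPM in members against 774 and 919 CPM in MPO-high cells. ALAS1, the housekeeping first enzyme of heme synthesis, fell to 32.7 and 47.0 CPM in members, against 578 and 506 CPM in MPO-high cells (log2 fold change -3.82 ± 0.18, edgeR adjusted p = 1.21e-06). FECH, ferrochelatase, moved the other way, at 20.4 and 18.8 CPM against 5.29 and 4.39 CPM. Of ribosome biogenesis genes 15 of 30 fell and none rose, among them MYC at 29.0 and 36.6 CPM against 66.2 and 55.1 CPM. MPO-high cells were deeper, with medians of 27054 and 30705 UMIs per cell against 17928.5 and 19842 in members.

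Whole-marrow erythroblasts, with at least 0.2% of UMIs from AHSP (a chaperone of alpha globin), numbered 435, 442 and 262 in marrows 1 to 3. Their median depths were 38411, 41930 and 56426 UMIs, against 17928.5 and 19842 in members. Across 9903 genes, 2208 were higher (22.3%) and 1865 lower (18.8%) in members, with a median of 0.040 over all genes (edgeR quasi-likelihood test). AHSP level, sort and library differ together between these groups and cannot be told apart. AHSP limits set both groups, so genes that follow AHSP from cell to cell were separated by the choice of cells. These calls are not independent of that choice. Without sorted library 1 the count was 2538 and without sorted library 2 it was 2261.

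Heme synthesis genes fell in 14 of 21 cases and rose in 1, with a median of -2.39. ALAS2 was at 0 and 0.190 CPM in members, against 672, 698 and 628 CPM in erythroblasts. ALAD was at 108 and 135 CPM against 1086, 939 and 826 CPM, so the members lay between stem-like cells and erythroblasts for this enzyme. HBM, a globin of the alpha cluster, was at 0.574 and 0.379 CPM in members, against 8347, 8732 and 8888 CPM (log2 fold change -14.49 ± 0.29, edgeR adjusted p = 4.61e-06).

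Red cell membrane skeleton genes fell in 11 of 17 cases. SLC4A1, band 3, had no UMI in members, against 14.3, 26.8 and 14.9 CPM in erythroblasts (at least 56.3-fold lower). TFRC was at 63.1 and 35.5 CPM in members, against 222, 288 and 171 CPM, and EPOR at 84.6 and 123 CPM against 236, 233 and 248 CPM (log2 fold change -1.53 ± 0.21, edgeR adjusted p = 0.00153). All members' values lay under those of the erythroblasts for these genes.

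Cell division genes were lower in members. G2 and mitosis genes fell in 41 of 46 cases with none higher (median -1.60), and DNA replication genes in 26 of 38 with 1 higher. PLK1, the mitotic kinase, was at 20.4 and 9.48 CPM in members against 153, 135 and 130 CPM. RRM2, a ribonucleotide reductase subunit, was at 39.3 and 30.0 CPM against 226, 196 and 196 CPM.

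Stem cell genes rose in 13 of 16 cases and megakaryocyte and platelet genes in 15 of 17, with none lower in either list. CD34 was at 123 and 86.7 CPM in members against 0.642, 0.219 and 0.428 CPM in erythroblasts, and KIT at 68.0 and 105 CPM against 7.20, 6.57 and 4.57 CPM. SELP was at 75.2 and 49.3 CPM against 0.193, 0.219 and 0.0713 CPM (log2 fold change 8.13 ± 0.35, edgeR adjusted p = 4.06e-05). FLI1 was at 10.0 and 13.5 CPM against 0.257, 0.0547 and 0.285 CPM. GATA2, which precedes GATA1 in progenitors, was at 10.9 and 11.4 CPM against 0.321, 0.219 and 0.0713 CPM. MYC, at 29.0 and 36.6 CPM, was above 13.5, 13.5 and 11.9 CPM in erythroblasts.

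FCER1A was at 227 and 209 CPM in members against 0.578, 0.876 and 0.143 CPM in erythroblasts (log2 fold change 8.27 ± 0.41, edgeR adjusted p = 9.55e-05). Basophil, mast cell and eosinophil markers rose in 7 of 8 cases. Neutrophil markers fell in 11 of 16. S100A12, a neutrophil cytosolic protein, was at 0 and 0.569 CPM in members against 1171, 443 and 784 CPM. The 18 neutrophil markers in the files summed to 460 and 372 CPM in members, against 4857, 2128 and 3943 CPM in erythroblasts, with 7 and 4 of them at 0 in the members and none in the erythroblasts. Their part in the result was not tested.

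**Figure D3:**
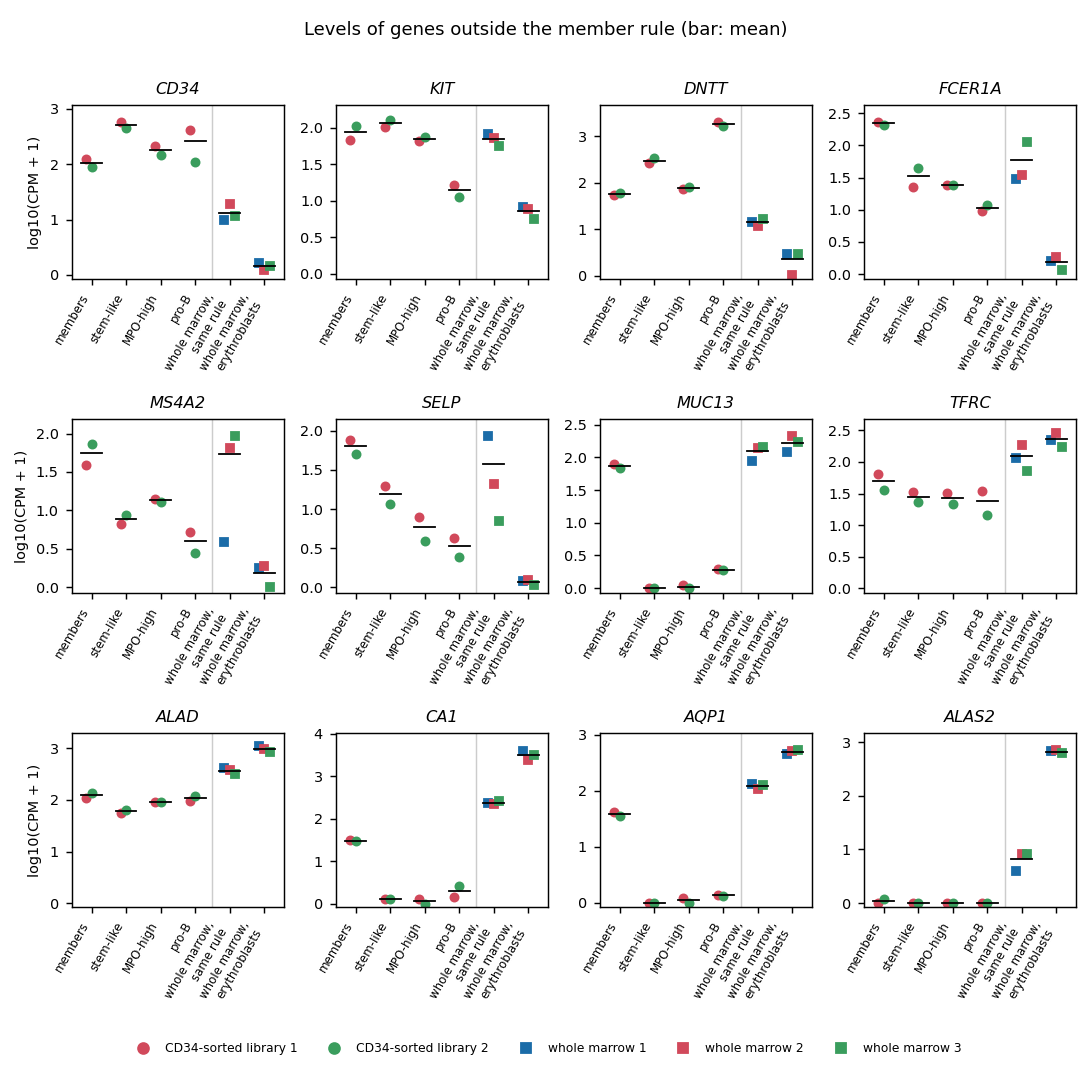
Levels as log10(CPM + 1) of 12 genes outside the member rule, by cell class (x axis) and library (points, coloured by dog as matched from the library names; black bars are means). FCER1A (227 and 209 CPM) was highest in the members, CD34 averaged 105 CPM in members, 514 CPM in stem-like cells and 0.43 CPM in erythroblasts, and ALAS2 was at or near 0 in every sorted class.

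Whole-marrow cells that passed the same per-cell rule numbered 24, 30 and 19 in marrows 1 to 3, and the sums of marrows 1 and 2 entered the test, which needed 20 cells. Their median depths were 28210.5, 34632 and 47512 UMIs in marrows 1 to 3, against 17928.5 and 19842 in members. All limits but that of AHSP count UMIs, so the rule is not equally strict at unequal depth. Of 7417 genes 2 were higher (0.027%) and 9 lower (0.121%) in members, and 806 had an unadjusted p under 0.05. DESeq2 called 82, and 70 passed when marrow 3 was added with its 19 cells. Without sorted library 1 the count was 2 and without sorted library 2 it was 1, whereas it was 103 without marrow 1 and 328 without marrow 2.

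EPOR was at 84.6 and 123 CPM in members, against 118, 113 and 133 CPM in the whole-marrow cells (log2 fold change -0.06 ± 0.26, edgeR adjusted p = 0.964). CD34 was at 123 and 86.7 CPM in members against 8.76, 17.9 and 10.7 CPM (edgeR adjusted p = 0.0513), and its protein was the one used for the sort. CA1 was at 30.4 and 29.6 CPM in members, against 232, 224 and 265 CPM (log2 fold change -2.84 ± 0.20, edgeR adjusted p = 0.0127). HBM was at 0.574 and 0.379 CPM against 26.3, 64.3 and 34.3 CPM. CA1 and HBM fell, and no values overlapped. With either sorted library left out, neither these nor the other named calls of this comparison passed.

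FCER1A rose, at 227 and 209 CPM in members against 29.2 and 33.1 CPM in whole-marrow cells of marrows 1 and 2 (log2 fold change 2.88 ± 0.22, edgeR adjusted p = 0.0131). In marrow 3 it was 111 CPM. With that marrow included, the log2 fold change was 1.98 and the adjusted p 0.21. The 19 cells of marrow 3 also had CPA3 at 606 CPM, against 1.46 and 7.15 CPM in marrows 1 and 2. APOC1 was at 116 and 99.8 CPM in members against 13.1 and 20.5 CPM (log2 fold change 2.71 ± 0.29, edgeR adjusted p = 0.0321). S100A12, SLPI and VCAN, genes of neutrophils and monocytes, fell in members. Neutrophil markers summed to 460 and 372 CPM in members and 836, 2472 and 1180 CPM in the whole-marrow cells, and their part was not tested.

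The members differed among themselves in platelet genes. Those with at least 3 UMIs over the platelet genes (SELP, PPBP, ITGB3, GP1BB and VWF among them) numbered 40 and 38, against 146 and 209 other members. SELP supplied 88.0% and 76.1% of these UMIs, and 28 and 17 of the cells had no other of the genes, so the split is mainly one by SELP. Genes that vary with or against SELP from cell to cell were separated by this split, so its calls are not independent of it. Across 10334 genes, 34 were higher (0.329%) and 26 lower (0.252%) in platelet-gene members (edgeR quasi-likelihood test). With library 1 left out 53 genes passed and with library 2 left out 1, and without the library block none did, with 974 at an unadjusted p under 0.05 in the fit with it.

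FLI1 rose to 23.2 and 33.5 CPM in platelet-gene members, against 6.28 and 10.0 CPM in other members (log2 fold change 1.63 ± 0.32, edgeR adjusted p = 0.0234). F13A1 (the coagulation factor XIII A chain) was at 20.6 and 25.8 CPM against 4.80 and 0.222 CPM and ANGPT1 at 7.72 and 12.9 CPM against 0.738 and 1.33 CPM. ITGA2B was at 109 and 308 CPM against 32.1 and 56.7 CPM and did not pass (edgeR adjusted p = 0.082).

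A few erythroid genes fell in the same cells. TSPO2 was at 5.15 and 2.58 CPM in platelet-gene members against 23.3 and 35.8 CPM in other members, MUC13 at 57.9 and 21.9 CPM against 85.3 and 76.7 CPM (DESeq2 adjusted p = 0.0592), and ALAD at 65.6 and 61.8 CPM against 120 and 148 CPM (log2 fold change -1.17 ± 0.14, edgeR adjusted p = 0.000366). EPOR was at 63.1 and 70.8 CPM against 90.8 and 132 CPM (edgeR adjusted p = 0.0604). In this split, made mainly by SELP, 3 of 30 genes of the erythroid surface and early erythroid list fell and none rose. Of the megakaryocyte list 3 of 15 rose and none fell.

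Members with at least 3 ITGA2B UMIs (22 and 59 cells) and with none (120 and 137 cells) were described without a test, since these subsets were chosen after values were seen. PLEK, pleckstrin of platelets, was at 89.4 and 147 CPM in cells with at least 3 UMIs and 35.2 and 30.7 CPM in cells with none. KLF1 was at 38.0 and 68.5 CPM with at least 3 UMIs against 93.0 and 129 CPM with none. MS4A2 was at 1.90 and 12.5 CPM against 53.6 and 98.0 CPM. MS4A2 UMIs were concentrated in few members, with 54.2% and 39.9% of them in the 10 cells that had most.

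Members with no KLF1 and no EPOR UMI (26 and 20 cells) were also described without a test. Their CA2 was at 665 and 918 CPM, against 2011 and 2396 CPM in the other members. Their FCER1A was at 460 and 391 CPM against 197 and 194 CPM, and SPI1 at 87.5 and 76.3 CPM against 29.5 and 27.7 CPM. They were somewhat shallower, with medians of 14035.5 and 16557.5 UMIs against 18579.5 and 19918.

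CD34 also varied within the members. Those above the median CD34 share of their library were set against the rest. Members had a median of 1 CD34 UMI in both libraries, and 74.7% and 70.0% had at least 1. The split therefore rests partly on single UMIs and, among cells with 1, on their depth. Genes that vary with or against CD34 from cell to cell were separated by this split, so its calls are not independent of it. Of 10347 genes 12 were higher (0.116%) and 7 lower (0.0677%) in CD34-high members (edgeR quasi-likelihood test, library as a block), against 804 at an unadjusted p under 0.05. None passed without the block or without library 2, and 9 passed without library 1.

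PRDX2, peroxiredoxin 2 of red cells, fell to 93.1 and 112 CPM in CD34-high members, against 183 and 244 CPM in CD34-low members (log2 fold change -1.09 ± 0.13, edgeR adjusted p = 0.00178). TSPO2 was at 6.81 and 17.8 CPM against 31.9 and 42.5 CPM, BLVRB (biliverdin reductase B) at 14.8 and 16.2 CPM against 38.3 and 51.4 CPM, and ALAD at 88.6 and 99.9 CPM against 127 and 167 CPM. DNTT rose to 68.7 and 85.3 CPM, against 38.3 and 34.6 CPM (log2 fold change 1.07 ± 0.18, edgeR adjusted p = 0.0355), and MNDA, a myeloid nuclear protein, to 33.5 and 25.1 CPM, against 13.9 and 7.86 CPM (log2 fold change 1.45 ± 0.23, edgeR adjusted p = 0.0159). With called doublets removed, DNTT had an adjusted p of 0.161, MNDA a log2 fold change of 0.77 with an adjusted p of 0.465, PRDX2 an adjusted p of 0.0535 and TSPO2 an adjusted p of 0.0823. EPOR was at 71.0 and 114 CPM in CD34-high members and 98.6 and 131 CPM in CD34-low members (edgeR adjusted p = 0.603).

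**Figure D4:**
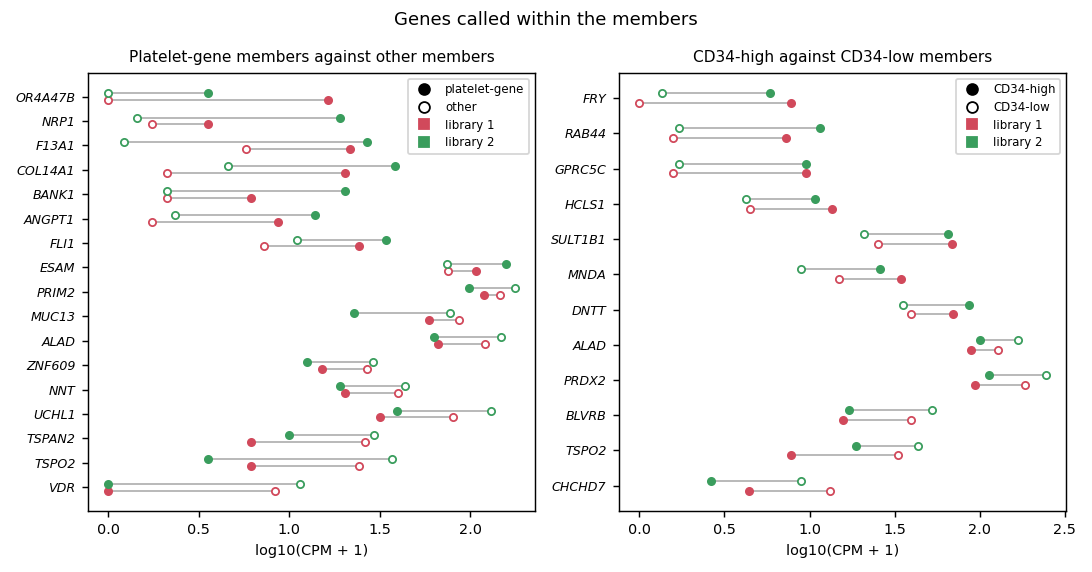
Levels as log10(CPM + 1) of named genes called within the members, in platelet-gene against other members (left) and CD34-high against CD34-low members (right); filled points are the first group named, open points the second, and lines join the values of a library. TSPO2 and ALAD were lower in both first groups.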

How the data were processed

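Each library of single-cell RNA-seq was deposited as unnormalized UMI counts. Per the file headers they came from Cell Ranger 7.0.1, whereas the submitters' processing notes give 7.1.0 and the build CanFam3.1. A barcode was kept if it had 200 genes or more and its mitochondrial share was no higher than 10%. Cells were assigned to classes by UMI limits, not by clustering. Within the sort the library is a block, which removes level differences between the 2 libraries. The p-values there measure how class differences varied between libraries of 2 dogs, with the spread pooled over all classes. Against whole-marrow cells, p-values measure the spread between libraries within both groups. Members, gene lists and the naming rule were chosen with earlier results of these data known, which support nothing here. UMIs were summed per library and class of at least 20 cells and tested with edgeR 4.0.16 (quasi-likelihood, TMM, low-count filter, robust; R 4.3.3), with 5 classes per sorted library and the library as a block for comparisons within the sort. Genes of class rules and mitochondrial genes were left out of counts and names. Named genes were the 12 highest and 12 lowest fold changes (6 and 6 for splits of the members) among called genes moving the same way in every library, the markers, and the 2 largest called changes of each of the lists; other list genes in the text are examples of called genes, chosen after their values were seen. Scrublet (scanpy 1.11.5) scored doublets at 0.8% per 1000 cells. A fold against no UMIs uses a floor of 3 counts over the group. Sorted libraries 1 and 2 are paired with marrows 2 and 3 by leading digits of the library names in the labels, a match that is not certain. The edgeR fit of each comparison was tested on simulated counts with a fixed dispersion and no library effect. Those simulations do not cover the choice of cells by rule genes or the other procedures. Alternatives were DESeq2 1.42.0, other size factors, no filter, doublets removed, a stricter rule, other blocks and each library left out. For comparisons within the sort, leaving out a library removed only its sums of the 2 classes compared. The contrast then rested on 1 library, and the other sums of both libraries still gave the spread. No genome of this build was used, so no coordinates or sequences are given. The values of some genes are not reported here.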

Additional observations from a re-analysis of the deposited data

How the results depend on the processing

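Counts of called genes depended on the libraries and the block more than on scaling. With sorted library 1 or 2 left out, the count was 691 to 878 (2178 with both) against stem-like cells, 1514 to 1767 (3223) against MPO-high cells, 0 to 9 (19) for the CD34 split and 1 to 53 (60) for the platelet-gene split. Leaving out any library gave 2261 to 4481 (4073) against erythroblasts and 1 to 328 (11) against whole-marrow cells of the same rule. With no replicate block, 938 genes passed against stem-like cells, 1686 against MPO-high cells and 0 in both splits of the members. The replicate block by dog, whose pairing is uncertain, called 5242 against erythroblasts and ended the calls of DNTT and MS4A2 there among named genes. Against whole-marrow cells of the same rule it could not be fitted with 20 cells per sum; with at least 10 cells, an alternative chosen after seeing the data, it called 532, and 70 passed without it. In that comparison DESeq2 called 82 (30 higher and 52 lower), edgeR with DESeq2 size factors 16 (5 and 11, against 2 and 9) and no filter 336. Without a filter 129 passed in the platelet-gene split and 79 in the CD34 split; DESeq2 called 86 (63 higher and 23 lower) and 49 (36 and 13) there, and 10 passed in the CD34 split with doublets removed. The share difference of 4.78 percentage points was 3.47 to 6.09 with a library left out. No named gene reversed direction where it passed in the main fit or in the alternative. Changes of sign in genes that passed in neither were not counted. The cause of these differences was not tested.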
